A study of Mus musculus with 9 samples.

Results

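Epithelial to mesenchymal transition (EMT) is the program by which epithelial cells give up cell-cell adhesion and take on a motile, fibroblast-like state. A set of 10 genes by which EMT is commonly read was taken by symbol from the gene table of a pancreatic tumor series, and all 10 were found among its 24493 genes. They comprise the epithelial adhesion genes Cdh1 (E-cadherin) and Epcam, the mesenchymal genes Cdh2 (N-cadherin) and Vim (vimentin), the receptor tyrosine kinase gene Axl, and the transcription factor genes Snai1, Snai2, Zeb1, Zeb2 and Twist1. RNA with poly(A) tails was profiled in 9 samples of mouse pancreatic tumor cells of the C57BL/6 strain, labelled as late stage and taken from tumors implanted under the skin. All derive from 1 clone, 6419c5, with 3 samples of the wild type (WT) and 3 each of the Usp22 knockouts Usp22-KOA and Usp22-KOB. Usp22 encodes the enzyme that removes ubiquitin from histones within SAGA, a transcription coactivator complex. What A and B stand for, whether the samples came from separate mice and how tumor cells were parted from host cells were not stated in the labels, so the p-values below rest on spread among samples that could be technical alone.

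In epithelia, E-cadherin joins neighbouring cells through its extracellular repeats and binds catenins inside the cell, while EPCAM is a surface glycoprotein of simple epithelia and carcinomas. SNAI1, SNAI2, ZEB1 and ZEB2 are zinc finger proteins that bind E-box motifs and repress Cdh1 and other epithelial genes, and TWIST1 is a basic helix-loop-helix factor that acts in the same program. Vimentin is the intermediate filament protein of mesenchymal cells, which fibroblasts, endothelial cells and white blood cells also make in quantity. In pancreatic cancer, cells often hold epithelial and mesenchymal genes at once, a state called partial EMT.

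Levels are in TPM (transcripts per 1000000), a unit corrected for gene length and library size, so levels of different genes can be set side by side. Read depth cannot be had from TPM and is unknown, so the precision is set by how far the 3 samples of each group lie apart. Differences are in log2(TPM + 1) with their standard error (SE) from 1 limma fit over all 9 samples, a scale that understates the change of low genes, and calls were made where the Benjamini-Hochberg adjusted p, taken over the 13843 genes whose mean reached 1 TPM, lay under 0.05. All 10 EMT genes passed that filter. These are bulk samples, in which fewer cells of a type and less RNA per cell cannot be told apart. Usp22 itself lay between 54.5 and 56.4 TPM in WT, between 8.46 and 10.1 TPM in Usp22-KOA and between 11.8 and 14.9 TPM in Usp22-KOB, so no library went against its label.

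Epcam and Twist1 were the EMT genes that fell most in the mean of both knockouts, and the 250 bases before their annotated starts are shown because Epcam holds the E-box hexamer bound by the SNAI and ZEB factors. Capitals mark CAGGTG on the strand shown or its reverse complement CACCTG, and both sequences are 5′ to 3′ on the plus strand in GRCm38.p6, from RefSeq (Epcam, chr17:87635729-87635978, Twist1, chr12:33957421-33957670).
Epcam: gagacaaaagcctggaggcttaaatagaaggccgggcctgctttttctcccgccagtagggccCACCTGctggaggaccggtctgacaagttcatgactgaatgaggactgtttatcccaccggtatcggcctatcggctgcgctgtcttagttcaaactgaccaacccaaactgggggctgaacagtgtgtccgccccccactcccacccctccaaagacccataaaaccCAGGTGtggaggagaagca
Twist1: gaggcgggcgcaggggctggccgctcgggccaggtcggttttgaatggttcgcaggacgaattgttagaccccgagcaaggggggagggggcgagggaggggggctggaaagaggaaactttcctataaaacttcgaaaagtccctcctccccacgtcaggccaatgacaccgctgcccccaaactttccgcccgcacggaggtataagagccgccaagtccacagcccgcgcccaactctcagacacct
The Epcam window held the hexamer at 2 places, beginning 187 and 19 bases before the start, and the Twist1 window held none. Of 32851 promoter windows of the same length, 17.2% held at least 1 copy on either strand and 2.06% held 2 or more. Among the EMT genes, 6 had a promoter in the RefSeq table, and 2 of them, Epcam and Snai1, held the hexamer. The windows of Axl, Vim and Zeb2 held none, and Cdh1, Cdh2, Snai2 and Zeb1 had no entry. A match describes these letters only, and binding was not measured here.

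The epithelial adhesion genes differed in the size of their change: Epcam fell steeply in both knockouts, while Cdh1 fell less in Usp22-KOA and was not called in Usp22-KOB. Cdh1 (chromosome 8, 106603351 to 106670246 in GRCm38, protein coding) read 390, 400.0 and 410 TPM in WT, where Usp22-KOA read 279, 274 and 289 TPM and Usp22-KOB 317, 338 and 404 TPM. The 3 Usp22-KOA samples lay below all WT samples, whereas the highest Usp22-KOB sample lay within the WT range. Usp22-KOA held 70.2% of the WT mean and its Cdh1 fell by 0.51 ± 0.08 on the log2 scale (limma adjusted p = 0.000586). In Usp22-KOB the log2 difference was -0.19 ± 0.08, with a 95% confidence interval from -0.37 to -0.0044 that is not adjusted for the number of genes, and it was not called (limma adjusted p = 0.0999). That call depended on Usp22-KOB 3: without this library the difference was -0.29 and was called (limma adjusted p = 0.00236). Within its group, Usp22-KOB 3 had the lowest sum of pan-leukocyte (white blood cell) markers, 821 TPM against 1703 and 1569 TPM. Its sum of epithelial markers was the highest, 8555 TPM against 6988 and 7258 TPM. With the leukocyte markers as a covariate the Cdh1 difference in Usp22-KOB changed sign, as given further below. The cause was not tested.

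Epcam (chromosome 17, 87635979 to 87651129, protein coding) stood at 399.6, 373 and 364 TPM in WT, close to the level of Cdh1. Usp22-KOA read 33.9, 24.7 and 54.4 TPM and Usp22-KOB 25.4, 32.6 and 35.8 TPM, so every knockout sample lay far below every WT sample and the knockouts overlapped. The WT mean was 379 ± 18.4 TPM (SD, n = 3), of which Usp22-KOA kept 9.94% and Usp22-KOB 8.26%. The log2 difference was -3.37 ± 0.24 in Usp22-KOA (limma adjusted p = 4.66e-06) and -3.57 ± 0.24 in Usp22-KOB (limma adjusted p = 1.38e-05). Ranked from the lowest log2 difference of all tested genes, Epcam took place 97 in Usp22-KOA and place 26 in Usp22-KOB. Between the knockouts it differed by 0.20, with a 95% confidence interval from -0.35 to 0.75 (limma adjusted p = 0.516). The ratio of Cdh1 to Epcam TPM, between 0.975 and 1.13 in WT, was between 5.32 and 11.1 in Usp22-KOA and between 10.4 and 12.5 in Usp22-KOB.

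Of the mesenchymal genes, Vim rose in both knockouts and Cdh2 fell in Usp22-KOA. Vim (chromosome 2, 13573927 to 13582826, protein coding) was the most abundant EMT gene, with 1610.1, 1545 and 1682 TPM in WT, where Usp22-KOA read 3167, 3099 and 2797 TPM and Usp22-KOB 2493, 2595 and 2802 TPM. All knockout samples lay above all WT samples, and the knockouts met at 2797 and 2802 TPM. Usp22-KOA stood at 187% and Usp22-KOB at 163% of the WT mean of 1612 ± 68.6 TPM. The rise was 0.90 ± 0.06 in Usp22-KOA (limma adjusted p = 4.41e-06) and 0.70 ± 0.06 in Usp22-KOB (limma adjusted p = 7.2e-05). The difference between the knockouts, 0.20 ± 0.06, was called (limma adjusted p = 0.0275), but leaving out any of Usp22-KOA 1, Usp22-KOA 2, Usp22-KOB 1 or Usp22-KOB 2 ended the call (limma adjusted p = 0.0916, 0.0839, 0.0947 and 0.078).

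Cdh2, on chromosome 18, encodes the cadherin of neurons, cardiac muscle and mesenchyme that often replaces E-cadherin in EMT. It read 22.6, 21.9 and 19.2 TPM in WT, where Usp22-KOA read 2.73, 3.08 and 3.11 TPM and Usp22-KOB 17.7, 19.2 and 23.5 TPM. The Usp22-KOA samples lay below all others, and the Usp22-KOB samples spanned the WT range. Usp22-KOA held 13.99% of the WT mean (log2 difference -2.48 ± 0.11, limma adjusted p = 3.53e-07). The difference of Usp22-KOB from WT was -0.079, with a 95% confidence interval from -0.34 to 0.18 (limma adjusted p = 0.62), and the knockouts differed from each other by -2.40 ± 0.11 (limma adjusted p = 8.74e-07). Cdh1 exceeded Cdh2 in every sample: 17.3 to 21.3 times in WT, 89.2 to 102 times in Usp22-KOA and 17.2 to 17.9 times in Usp22-KOB. The ratio of Vim to Cdh1 TPM ran from 3.86 to 4.13 in WT, from 9.68 to 11.3 in Usp22-KOA and from 6.93 to 7.86 in Usp22-KOB, with no overlap between the groups.

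**Figure D1:**
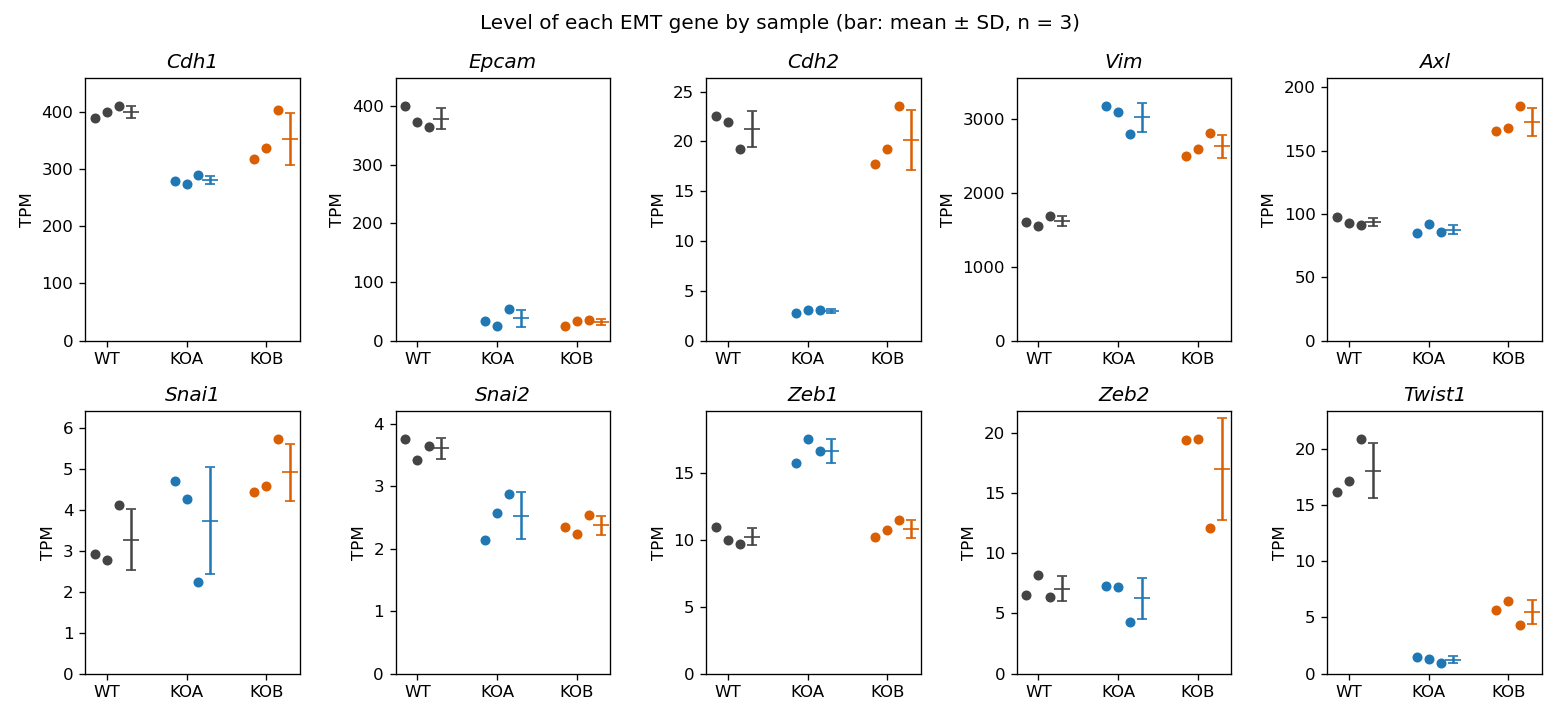
Each panel plots 1 EMT gene, with TPM on the vertical axis from 0, a point for each sample of WT, Usp22-KOA (KOA) and Usp22-KOB (KOB), and a bar for the mean ± SD (n = 3). Epcam and Twist1 lie low in all 6 knockout samples and Vim lies high in them, whereas Cdh2 and Zeb1 stand apart in KOA and Axl and Zeb2 in KOB.

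Axl encodes a receptor of the TAM family (TYRO3, AXL, MERTK) that binds the ligand GAS6 and is linked to EMT and drug resistance in carcinoma. Its gene lies on chromosome 7 from 25757273 to 25788705. It read 97.3, 92.7 and 91.3 TPM in WT, where Usp22-KOA read 85.2, 92.1 and 85.8 TPM and Usp22-KOB 165, 168 and 185 TPM. The Usp22-KOB samples lay above all others, while Usp22-KOA and WT overlapped. Axl rose by 0.87 ± 0.06 in Usp22-KOB (184% of the WT mean, limma adjusted p = 1.38e-05). In Usp22-KOA the difference was -0.096 (95% confidence interval -0.23 to 0.037, limma adjusted p = 0.193), and it was called lower under quantile normalization (-0.21, limma adjusted p = 0.00883) and median-of-ratios scaling (-0.13, 0.0317). The knockouts differed by -0.97 ± 0.06 (limma adjusted p = 3.39e-06). Of the other TAM genes, Mertk, a receptor by which macrophages take up dead cells, stood at 4.21 ± 0.912, 5.17 ± 1.62 and 15.5 ± 3.73 TPM in WT, Usp22-KOA and Usp22-KOB (SD, n = 3 each), a rise of 1.65 ± 0.23 in Usp22-KOB (limma adjusted p = 0.000852). Tyro3 fell by 0.60 ± 0.18 in Usp22-KOA (limma adjusted p = 0.019). Pros1, which encodes the ligand protein S, rose by 0.27 ± 0.07 and 0.33 ± 0.07 (limma adjusted p = 0.00605 and 0.00477). Gas6, named here after its values were seen, was not called in either knockout (0.46 and 0.65, limma adjusted p = 0.115 and 0.0535). In the mean of both knockouts Gas6 was called higher (0.55 ± 0.20, limma adjusted p = 0.0436).

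Among the transcription factors, Twist1 showed the largest change, and it fell. Twist1 (chromosome 12, 33957671 to 33959829, protein coding) read 16.2, 17.1 and 20.8 TPM in WT, where Usp22-KOA read 1.496, 1.27 and 0.916 TPM and Usp22-KOB 5.65, 6.44 and 4.36 TPM. The 3 groups did not overlap, with WT highest and Usp22-KOA lowest. Relative to the WT mean, Usp22-KOA kept 6.80% and Usp22-KOB 30.4%, with log2 differences of -3.10 ± 0.16 (limma adjusted p = 6.89e-07) and -1.56 ± 0.16 (limma adjusted p = 0.000138). The fall was deeper in Usp22-KOA by 1.54 ± 0.16 on the log2 scale (difference between the knockouts -1.54, limma adjusted p = 6.86e-05). Its paralog Twist2 moved the other way in Usp22-KOA: it read 7.52, 7.01 and 4.42 TPM in WT, where Usp22-KOA read 41.6, 45.1 and 46.1 TPM and Usp22-KOB 9.14, 6.02 and 6.18 TPM. Twist2 rose by 2.66 ± 0.19 in Usp22-KOA (limma adjusted p = 4.76e-06) and was not called in Usp22-KOB (0.16 ± 0.19, limma adjusted p = 0.556). The ratio of Twist1 to Twist2 TPM was 2.15 to 4.71 in WT, 0.0199 to 0.0360 in Usp22-KOA and 0.617 to 1.07 in Usp22-KOB. Reads of these related genes can be divided between them, so single values are less certain.

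The ZEB genes changed in different knockouts. Zeb1, on chromosome 18, read 10.9, 9.98 and 9.70 TPM in WT, where Usp22-KOA read 15.7, 17.5 and 16.6 TPM and Usp22-KOB 10.2, 10.7 and 11.5 TPM. The Usp22-KOA samples lay above all others, a rise of 0.65 ± 0.08 (limma adjusted p = 0.000121), and the Usp22-KOB difference was 0.072 with a 95% confidence interval from -0.11 to 0.25 (limma adjusted p = 0.519). Zeb2 (chromosome 2, 44983632 to 45117395, protein coding, overlapped by the antisense gene Zeb2os, whose reads cannot be told apart from its own where counting ignores strand, a setting the labels do not state) read 6.55, 8.23 and 6.37 TPM in WT, where Usp22-KOA read 7.27, 7.17 and 4.32 TPM and Usp22-KOB 19.4, 19.5 and 12.1 TPM. The Usp22-KOB samples lay above all others, a rise of 1.14 ± 0.22 (limma adjusted p = 0.00407), and the Usp22-KOA difference was -0.17 with a 95% confidence interval from -0.67 to 0.33 (limma adjusted p = 0.534). The tests between the knockouts gave 0.58 ± 0.08 for Zeb1 (limma adjusted p = 0.000361) and -1.31 ± 0.22 for Zeb2 (limma adjusted p = 0.00114). Zeb1 exceeded Zeb2 in each WT and Usp22-KOA sample (ratio 1.21 to 3.85) and was below it in each Usp22-KOB sample (0.523 to 0.944).

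Zeb2 is known from macrophages as well as from EMT, and macrophage markers moved with it; their part in the Zeb2 result cannot be told apart from a change within the tumor cells. The summed level of 12 macrophage and monocyte markers was 2174, 3292 and 2275 TPM in WT, 3496, 2981 and 1609.7 TPM in Usp22-KOA and 9861, 9677 and 5656 TPM in Usp22-KOB. WT 2 was the highest WT sample in both measures, and the third sample of each knockout was the lowest of its group in both. All 12 markers rose in Usp22-KOB and 1 rose in Usp22-KOA by limma, where 18.7% and 29.4% of all tested genes rose. With the mean log2(TPM + 1) of 10 pan-leukocyte markers as a covariate, the Zeb2 difference in Usp22-KOB was 0.34 and not called (limma adjusted p = 0.141). The Zeb2 difference in Usp22-KOA was then -0.61 and called (limma adjusted p = 0.00108). In the same fit Axl in Usp22-KOB and Vim, Epcam and Twist1 in both knockouts kept their calls. Pan-leukocyte markers summed to 340 to 601 TPM in WT and 821 to 1703 TPM in Usp22-KOB, without overlap. For Usp22-KOB against WT, calls kept or lost in that fit therefore cannot part the marker level from the group.

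Snai1 and Snai2 were low in all samples, at most 5.73 and 3.75 TPM. Snai1 read 2.92, 2.77 and 4.13 TPM in WT, where Usp22-KOA read 4.72, 4.27 and 2.24 TPM and Usp22-KOB 4.45, 4.60 and 5.73 TPM. Usp22-KOA overlapped WT (0.12, 95% confidence interval -0.38 to 0.63, limma adjusted p = 0.666), and the Usp22-KOB samples lay above WT without a call (0.48, 95% confidence interval -0.027 to 0.99, limma adjusted p = 0.125). Without Usp22-KOA 3, which enters the shared estimate of the spread, the Usp22-KOB difference was called (limma adjusted p = 0.0382). Snai2 (chromosome 16, 14705852 to 14709385), which encodes the factor SLUG, read 3.75, 3.42 and 3.65 TPM in WT, where Usp22-KOA read 2.14, 2.57 and 2.88 TPM and Usp22-KOB 2.34, 2.24 and 2.54 TPM. All knockout samples lay below all WT samples, with falls of 0.39 ± 0.12 and 0.45 ± 0.12 on the log2 scale (log2 differences -0.39 and -0.45, limma adjusted p = 0.0211 and 0.0174). These calls are not firm: that in Usp22-KOA ended without WT 1, WT 3 or Usp22-KOA 1 (limma adjusted p = 0.0624, 0.0544 and 0.0781), and that in Usp22-KOB without WT 1 or Usp22-KOB 2 (0.058 and 0.063).

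**Figure D2:**
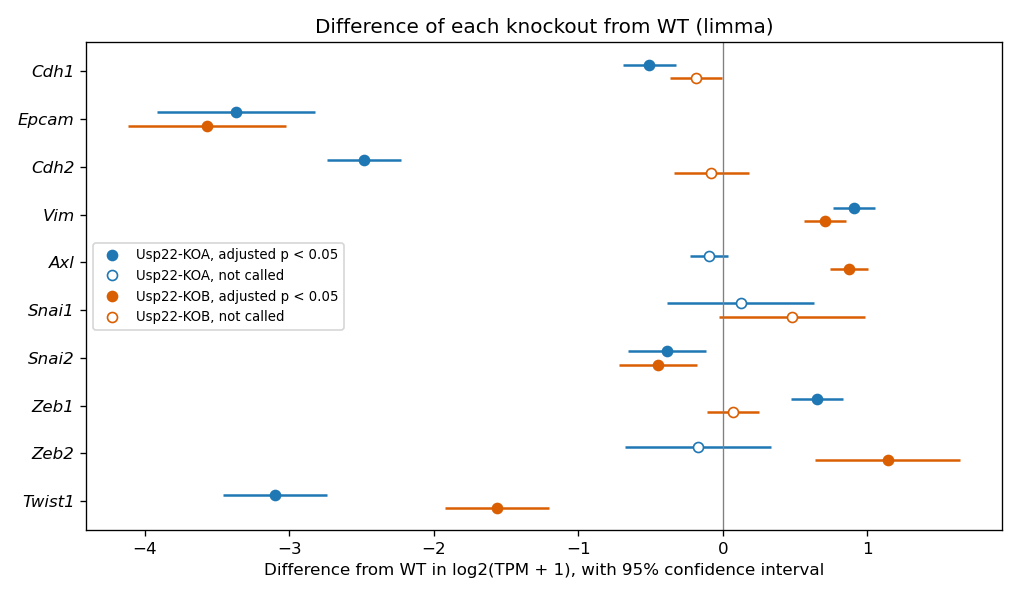
Each point is the limma difference of a knockout from WT in log2(TPM + 1), on the horizontal axis, for the 10 EMT genes, with a 95% confidence interval not adjusted for the number of genes, and open points were not called. The Epcam intervals of both knockouts overlap, with upper ends at -2.82 and -3.02, those of Cdh2 and Twist1 do not overlap, and Vim lies above 0 in both.

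Read as a set, 7 of the 10 genes were called in Usp22-KOA against WT, 2 higher and 5 lower, where 56.3% of all tested genes were called (29.4% higher and 26.9% lower). In Usp22-KOB against WT 6 were called, 3 higher and 3 lower, against a background of 37.1% (18.7% higher and 18.4% lower). Between Usp22-KOA and Usp22-KOB 7 were called, 2 higher and 5 lower, against 51.7% (27.5% higher and 24.2% lower). For the mean of both knockouts against WT 8 were called, 3 higher and 5 lower, against 50.0% (25.9% higher and 24.1% lower), so the number of calls is no mark of these genes. Samples of 2 groups lay wholly apart for 29.7% of tested genes with both knockouts set against WT, 65.3% with Usp22-KOA, 49.1% with Usp22-KOB and 58.3% between the knockouts, so groups that do not overlap are common. The same WT samples stand in both comparisons with WT. The mean of both knockouts can be set by 1 of them, as for Cdh2 (-1.28 ± 0.10), Zeb1 (0.36 ± 0.07) and Axl (0.39 ± 0.05), whose calls ended when the 6 knockout samples were taken as 1 group (limma adjusted p = 0.218, 0.188 and 0.351), as did that of Cdh1 (0.0693). The calls of Epcam, Vim, Twist1 and Snai2 were kept there. The genes did not move to 1 side of the transition: among the called differences from WT, those of Epcam and Vim in both knockouts, Cdh1 and Zeb1 in Usp22-KOA, and Zeb2 and Axl in Usp22-KOB had the direction that EMT is known for, and those of Twist1 and Snai2 in both knockouts and Cdh2 in Usp22-KOA had the other.

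Cdh1 and Cdh2 were set beside the other cadherins, a list in which 7 of 18 genes reached the filter. In Usp22-KOA 4 of the 7 rose and 3 fell, with a median of 0.84 against 0.019 for all tested genes, and in Usp22-KOB 1 fell and 6 were not called, with a median of -0.16 against -0.0075. Over all tested genes 56.3% were called in Usp22-KOA and 37.1% in Usp22-KOB. Cdh10, a type II cadherin, stood at 7.79, 8.07 and 6.24 TPM in WT, was listed at 0 in all 3 Usp22-KOA samples and stood at 4.76, 5.25 and 5.90 TPM in Usp22-KOB (limma adjusted p = 2.67e-07 and 0.0379, both lower). The brush border protocadherins Cdhr2 and Cdhr5, which link intestinal microvilli, rose in Usp22-KOA by 1.72 ± 0.14 and 1.08 ± 0.12 (limma adjusted p = 1.15e-05 and 5.89e-05). The next genes, Cdh3, Cdh6 and Cdh11 from other lists among them, were named after their values were seen. Cdh17, the liver-intestine cadherin, was the most abundant of the 7, with 204 ± 14.6, 373 ± 39.2 and 224 ± 26.8 TPM in WT, Usp22-KOA and Usp22-KOB, and it rose in Usp22-KOA by 0.86 ± 0.10 (limma adjusted p = 9.13e-05). Cdh3 (P-cadherin), Cdh6 (kidney cadherin) and Cdh11 (a cadherin of fibroblasts and bone) fell in Usp22-KOA, to 0.239 ± 0.0215, 1.65 ± 0.182 and 0.522 ± 0.21 TPM from 20.04 ± 1.68, 27.3 ± 0.38 and 4.70 ± 1.13 TPM in WT (limma adjusted p at most 1.42e-05). Unlike Cdh2, Cdh3 and Cdh6 were also called lower in Usp22-KOB (-1.11 ± 0.21 and -0.90 ± 0.17, limma adjusted p = 0.00344 and 0.0034), and Cdh11 was not called there (0.46 ± 0.16, limma adjusted p = 0.0534). In Usp22-KOA Cdh1 thus held 281 TPM, below the 373 TPM of Cdh17, while in WT and Usp22-KOB Cdh1 was the higher.

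**Figure D3:**
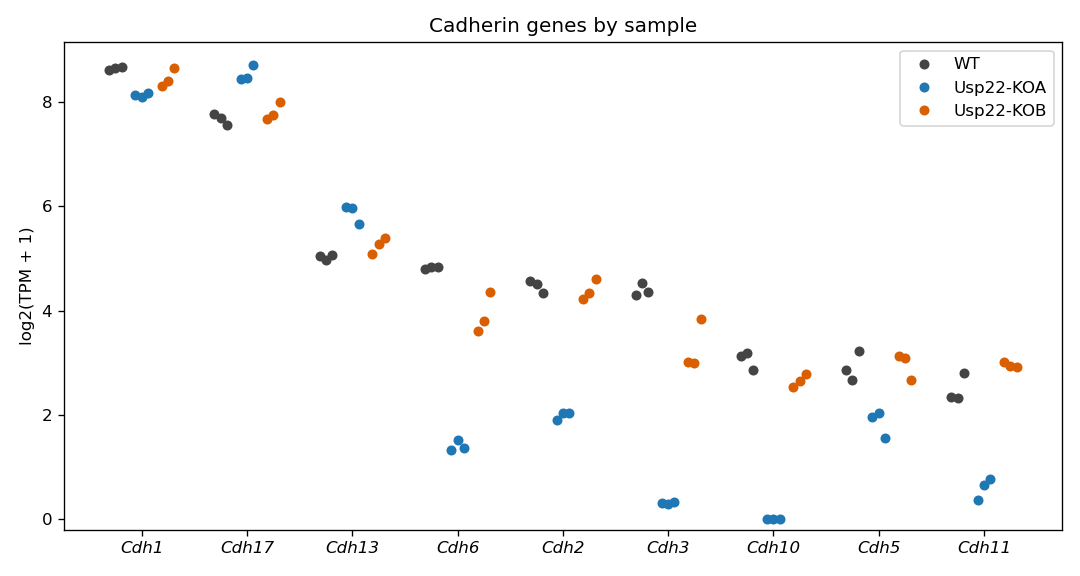
Each point is the level of 1 cadherin gene in 1 sample, in log2(TPM + 1) on the vertical axis, by group. In Usp22-KOA Cdh6, Cdh2, Cdh3, Cdh10, Cdh11 and the endothelial cadherin gene Cdh5 lie below both other groups and Cdh17 and Cdh13 above both.

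Many genes of the junctions in which E-cadherin and EPCAM lie fell. Of 16 tested genes of adherens junctions and desmosomes, 10 fell and 3 rose in Usp22-KOA (median -0.78), and 8 fell and 2 rose in Usp22-KOB (median -0.21). For this and the next lists, 26.9% of all tested genes fell and 29.4% rose in Usp22-KOA, against 18.4% and 18.7% in Usp22-KOB. The desmosomal cadherin Dsg2 changed by -3.25 ± 0.12 and -1.15 ± 0.12, and the plakophilins Pkp3 and Pkp2, desmosomal plaque proteins, by -2.79 ± 0.11 and -1.83 ± 0.07 in Usp22-KOA. Pkp3 also fell in Usp22-KOB (-1.07 ± 0.11), as did the adhesion gene Nectin2 (-0.88 ± 0.09), whereas periplakin (Ppl) rose in both, by 1.24 ± 0.09 and 1.04 ± 0.09. Limma adjusted p for these calls was at most 0.000125. Of 21 tight junction and epithelial surface genes, 17 fell and 2 rose in Usp22-KOA (median -1.11), and 16 fell and 5 were not called in Usp22-KOB (median -0.90). The claudins Cldn4 and Cldn7 and the membrane mucin Muc1 fell to 1.09 ± 0.393, 10.2 ± 0.164 and 49.5 ± 3.84 TPM in Usp22-KOA and to 7.79 ± 0.623, 14.2 ± 2.74 and 139 ± 23.1 TPM in Usp22-KOB, from 42.8 ± 3.28, 81.1 ± 5.65 and 603 ± 24.0 TPM in WT (limma adjusted p at most 6.02e-06). The claudin Cldn3 of the same list, named after its values were seen, rose in Usp22-KOA (2.49 ± 0.12, limma adjusted p = 5.08e-07). It fell in Usp22-KOB (-1.24 ± 0.12, limma adjusted p = 0.000108). Of the keratins, filament proteins of epithelia, the ductal Krt7 stood at 905 ± 28.1 TPM in WT and fell in both knockouts, to 146 ± 9.88 TPM in Usp22-KOA (-2.62 ± 0.08, limma adjusted p = 4.7e-08) and 652 ± 69.1 TPM in Usp22-KOB (-0.48 ± 0.08, limma adjusted p = 0.00182). Krt8 was not called in either knockout and stood at 2495 ± 105, 2474 ± 129 and 2634 ± 318 TPM. Of 2 more named after their values were seen, Krt18, the usual filament partner of Krt8, fell in Usp22-KOA (-0.93 ± 0.07, limma adjusted p = 8e-06) and Krt19 rose there (0.44 ± 0.09, limma adjusted p = 0.00247), and neither was called in Usp22-KOB (limma adjusted p = 0.713 and 0.338).

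Of 9 tested regulators that keep cells epithelial, 6 fell and 1 rose in each knockout against WT, where 26.9% and 18.4% of all tested genes fell, with medians of -1.04 in Usp22-KOA and -0.88 in Usp22-KOB. Elf3, an epithelial ETS factor, changed by -1.74 ± 0.14 and -1.33 ± 0.14, and the pioneer factor Foxa1 by -1.61 ± 0.17 and -2.24 ± 0.17, from 5.43 ± 0.321 TPM in WT. Klf5, a Krüppel-like factor, changed by -0.60 ± 0.09 in Usp22-KOA and by -1.06 ± 0.09 in Usp22-KOB. Klf4, which can activate Cdh1, was the member that rose, by 1.35 ± 0.06 and 0.94 ± 0.06. Limma adjusted p for these values was at most 0.000453.

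Most mesenchymal genes beyond Vim fell in Usp22-KOA, and in Usp22-KOB more of them rose than fell. Of 28 tested genes of mesenchymal cytoskeleton, matrix and adhesion, 19 fell and 4 rose in Usp22-KOA (median -1.45), and 5 fell and 9 rose in Usp22-KOB (median 0.35). Of all tested genes 26.9% fell and 29.4% rose in Usp22-KOA, and 18.4% fell and 18.7% rose in Usp22-KOB, so the count that fell in Usp22-KOB is near the background. In Usp22-KOA tropomyosin 2 (Tpm2) and the neural adhesion gene Ncam1 changed by -3.26 ± 0.10 and -3.12 ± 0.12 (limma adjusted p at most 1.41e-07). In Usp22-KOB the matrix gene Sparc and the fibronectin receptor chain Itga5 rose by 0.80 ± 0.11 and 0.63 ± 0.09 (limma adjusted p = 0.000849 and 0.00114). S100a4, a calcium-binding protein also called fibroblast-specific protein, rose in both, from 442 ± 50.03 TPM in WT to 1619 ± 221 and 3195 ± 284 TPM (limma adjusted p = 1.75e-06 and 9.48e-07). The direct test between the knockouts called 22 of the 28 lower and 1 higher in Usp22-KOA, where 24.2% and 27.5% of all tested genes were.

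Other EMT factors and TGF-beta inputs, the ligands and receptors that can start EMT, were read in the same way. Of 8 tested EMT factors, 5 fell and 1 rose in Usp22-KOA, and 3 fell and 1 rose in Usp22-KOB, with medians of -0.91 and -0.37. Of all tested genes 56.3% were called in Usp22-KOA (26.9% lower) and 37.1% in Usp22-KOB (18.4% lower). In Usp22-KOB the calls of both directions together lie near the background, while the 3 of 8 that fell exceed the 18.4%. Prrx1, a homeobox factor of mesenchyme, went from 3.77 ± 0.783 TPM in WT to 1.74 ± 0.325 in Usp22-KOA (lower, limma adjusted p = 0.0013) and 11.5 ± 0.898 in Usp22-KOB (higher, 0.000143). Tcf4, Sox4 and Sox9 fell in both, with Usp22-KOA log2 differences of -1.23, -1.09 and -1.03 and Usp22-KOB ones of -0.40, -0.50 and -0.64 (limma adjusted p at most 0.00515). Sox9 is also in the list of epithelial markers read below, so its fall is counted in both lists. Of 14 tested ligands, receptors and SMAD pathway genes of the TGF-beta family, 8 fell and 2 rose in Usp22-KOA (median -0.33), and 3 fell and 4 rose in Usp22-KOB (median -0.043), against the same shares of all tested genes. The receptor gene Tgfbr2 rose in both, by 0.74 ± 0.08 and 0.47 ± 0.08, and the co-receptor gene Tgfbr3 by 2.95 ± 0.18 and 0.80 ± 0.18. The feedback inhibitor Smad7 changed by -1.17 ± 0.09 and -0.44 ± 0.09, the ligand gene Tgfb3 by -1.46 ± 0.09 and -0.59 ± 0.09, and the SMAD corepressor Skil by -0.34 ± 0.08 and -0.41 ± 0.08. Limma adjusted p for these TGF-beta family values was at most 0.00909.

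**Figure D4:**
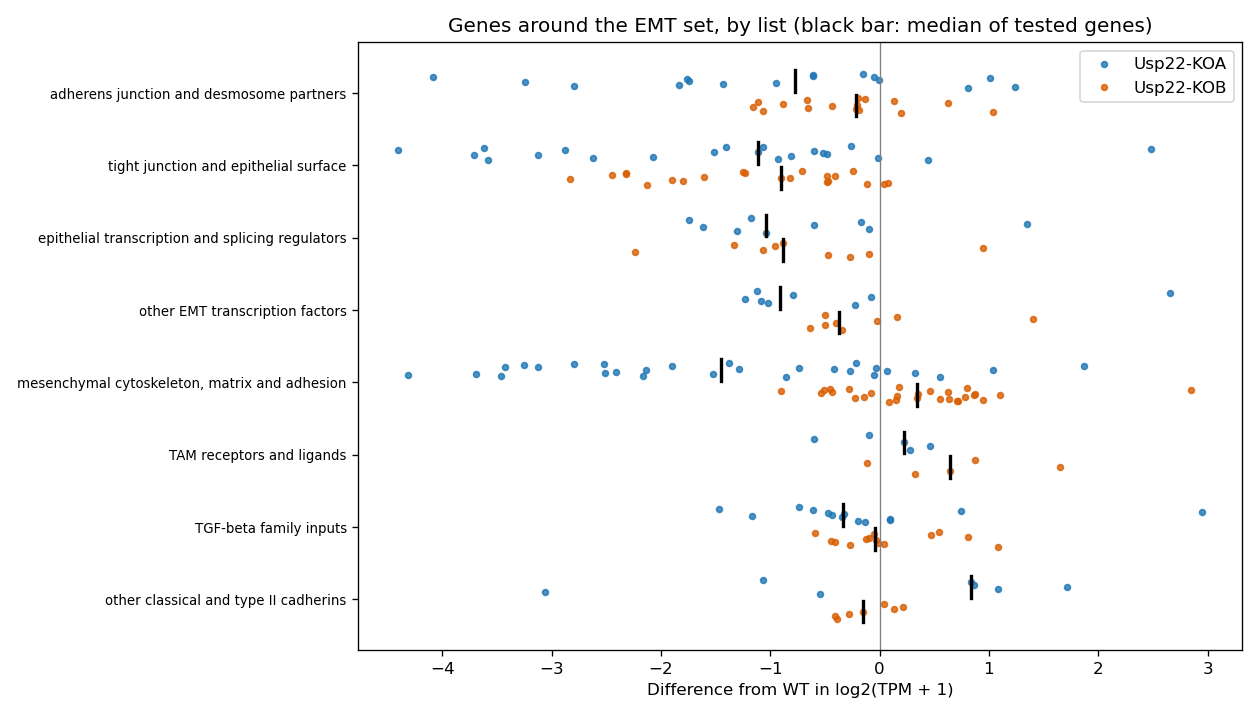
Each point is the difference of 1 tested gene from WT in log2(TPM + 1), on the horizontal axis, for 8 lists of genes around the EMT set in Usp22-KOA and Usp22-KOB, and black bars are list medians. Tight junction genes lie mostly below 0 in both knockouts, and mesenchymal genes lie mostly below 0 in Usp22-KOA (median -1.45) but not in Usp22-KOB (median 0.35).

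Because Vim, Axl, Zeb2, Cdh2, Cdh11 and the matrix genes are also made by host cells, marker lists of other cell types were read in the same libraries. Epithelial markers were abundant throughout, with sums of 8273 to 8820, 6627 to 7404 and 6988 to 8555 TPM, here and below in the order WT, Usp22-KOA, Usp22-KOB. Of their 9 tested genes, however, 6 fell and 1 rose in Usp22-KOA (median -1.03), and 6 fell and 3 were not called in Usp22-KOB (median -0.51). Of 12 fibroblast markers, 3 of which (Col1a1, Col1a2 and Col3a1) are also in the mesenchymal list, 8 fell and 1 rose in Usp22-KOA, and 7 rose and 5 were not called in Usp22-KOB. Their sum was 519 to 955, 247 to 309 and 848 to 1304 TPM. As background for these lists and the endothelial one, 26.9% of all tested genes were called lower and 29.4% higher for Usp22-KOA. For Usp22-KOB the shares were 18.4% lower and 18.7% higher. Of 9 tested endothelial markers 9 fell in Usp22-KOA and 1 in Usp22-KOB, and the sums of the 10 listed were 49.2 to 66.2, 10.9 to 17.5 and 38.3 to 57.7 TPM. The sums of 9 pericyte and smooth muscle markers were 54.6 to 65.1, 10.8 to 11.7 and 33.9 to 43.6 TPM, and those of 8 Schwann cell and nerve markers 35.8 to 39.5, 13.8 to 15.7 and 21.4 to 26.0 TPM. Pan-leukocyte markers summed to 340 to 601, 485 to 981 and 821 to 1703 TPM, and 10 T and NK cell markers to 9.48 to 17.7, 45.0 to 99.3 and 23.6 to 63.4 TPM. The white blood cell and endothelial markers summed above show that RNA of host cells was in every library. Ptprc, the pan-leukocyte phosphatase CD45, stood at 14.96 ± 4.92, 21.7 ± 7.27 and 35.9 ± 13.02 TPM. Pecam1, an endothelial adhesion gene, stood at 7.71 ± 2.46, 3.09 ± 1.59 and 9.47 ± 2.50 TPM. Pdgfra, a receptor of fibroblasts, was low, at 1.51 ± 0.361, 1.11 ± 0.245 and 3.14 ± 0.278 TPM, and which cells made it was not tested. Sox10, which defines Schwann cells, was at most 0.111 TPM in any library, and 1 marker of that list, Foxd3, was listed at 0 in all.

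The fibroblast marker sum was lower in each Usp22-KOA sample than in any other sample. With the mean log2(TPM + 1) of the fibroblast markers as a covariate, the difference of Cdh2 in Usp22-KOA and between the knockouts stayed called. That of Zeb1 in Usp22-KOA was 0.39 and not called (limma adjusted p = 0.182). Vim and Axl in Usp22-KOB and Epcam and Twist1 in both knockouts against WT also stayed called, and Zeb2 in Usp22-KOB did not (0.75, limma adjusted p = 0.324). The calls of Vim and Cdh1 in Usp22-KOA and of Snai2 in either knockout under this covariate are not reported here. In that fit 160 genes were called between the knockouts, of 7158 without it. All Usp22-KOA sums lie below all others. In the comparisons of Usp22-KOA with WT and with Usp22-KOB, the marker level and the group therefore cannot be told apart.

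**Figure D5:**
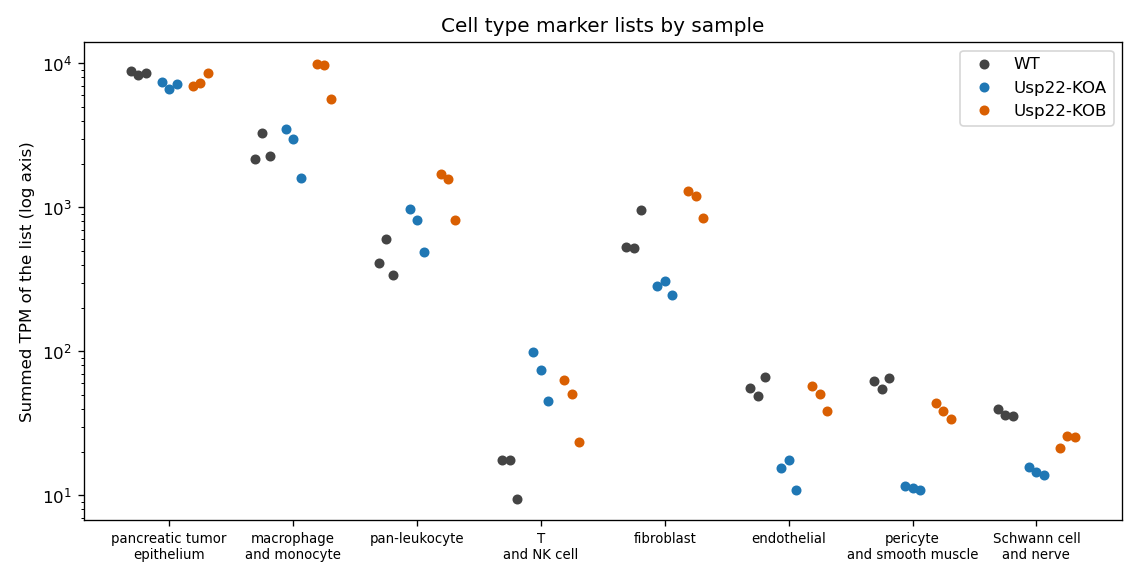
Each point is the summed TPM of 1 marker list in 1 sample, on a log axis, for 8 cell types by group. Epithelial sums lie between 6627 and 8820 TPM in all samples, macrophage sums lie highest in Usp22-KOB, and fibroblast, endothelial, pericyte and Schwann cell sums lie lowest in Usp22-KOA.

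Genes with the most similar profile were sought by the root mean square difference over the 9 samples in log2(TPM + 1), each gene taken relative to its WT mean, among 10420 genes averaging 5 TPM or more. For Epcam they were Acsm3 (a mitochondrial acyl-CoA synthetase, 0.30), Dclk1 (a doublecortin-like kinase, 0.33) and Mycn (a MYC family factor, 0.46). Acsm3 stood at means of 37.1, 2.29 and 1.44 TPM and Dclk1 at 37.8, 3.06 and 2.76 TPM in WT, Usp22-KOA and Usp22-KOB. For Cdh1 they were Cttn (cortactin, an actin-binding protein), Csnk1g3 and Bend3 (0.054, 0.056 and 0.056), for Vim they were Rdx (radixin, which ties actin to the membrane), Sec14l1 and Aacs (0.052, 0.065 and 0.068), and for Axl they were Lgals2 (galectin 2), Mmd and Spire1 (0.12, 0.13 and 0.14). Lgals2 followed Axl from 1569 TPM in WT and 1508 TPM in Usp22-KOA to 2902 TPM in Usp22-KOB. The samples of a group share its mean, so the 9 points are not independent and no p is given.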

How the data were processed

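Expression was measured as RNA with poly(A) tails in 9 libraries. A single gene table in TPM was deposited by the authors. Salmon, DESeq2 and mm10 are named per the submitters' processing notes, which state no role, version or annotation. Each of the 9 columns was matched to a sample by genotype and replicate number, and no column was left over. From the deposited TPM, log2(TPM + 1) was fitted with limma 3.58.1 (R 4.3.3), with all 3 group means in 1 fit and an intensity trend. Genes averaging 1 TPM or more were tested, Benjamini-Hochberg adjustment ran over all 13843, and no count model was used because the values are not counts. The script was tested on simulated data. Exact permutation tests were planned only for members below the filter, and 0 were. Positions are from GENCODE M21 (GRCm38), and promoters from RefSeq (GRCm38.p6).

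The EMT genes and the 19 other lists (230 genes in all lists, 229 in the table) were chosen with earlier results of these data known. Genes named from lists are up to 3 with the smallest adjusted p for each knockout, the first and the highest of each marker list where printed, and the 3 nearest profiles for Cdh1, Epcam, Vim and Axl. Some genes that this rule names are not reported here. Alternatives covered pseudocounts, filters, scalings, weights, trend, covariates, the replicate block and left-out samples. Figures used matplotlib 3.10.9.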

Additional observations from a re-analysis of the deposited data

Results flagged for a closer look

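The effects of the 2 knockouts against WT differed for 7 of the EMT genes by the direct test between Usp22-KOA and Usp22-KOB (limma adjusted p under 0.05, where 51.7% of all tested genes passed). The effect in Usp22-KOA minus that in Usp22-KOB, on the log2 scale, was -2.40 for Cdh2, -1.54 for Twist1, -1.31 for Zeb2, -0.97 for Axl, -0.32 for Cdh1, 0.58 for Zeb1 and 0.20 for Vim. Cdh2, Twist1, Zeb2 and Axl kept this call under every alternative run except the fibroblast covariate, under which Cdh2 and Axl kept it.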

How the results depend on the processing

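Over 10 EMT genes and all alternatives, 806 values kept direction and call, 35 lost the call, 14 gained it and 17 changed sign, none of the last called in the reported fit. Genes called for the mean of both knockouts, Usp22-KOA, Usp22-KOB and Usp22-KOA against Usp22-KOB numbered 6920, 7793, 5129 and 7158. With the 6 knockout samples as 1 group the first was 2946, with 4 EMT genes in place of 8. With the fibroblast covariate the others were 2984, 1189 and 160, with 2 EMT genes between the knockouts in place of 7, and with the leukocyte covariate Usp22-KOB gave 2003. The fibroblast covariate moved the median of all genes to -0.188, 0.154 and -0.335 and the share of calls that were higher to 28.4%, 61.7% and 25.6%, from 52.2%, 50.4% and 53.2%. The cause of these shifts was not tested.

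Signs changed with the leukocyte covariate for Cdh1 (0.028) and Cdh2 (0.13) in Usp22-KOB, Epcam (-0.075) and Snai2 (-0.039) between knockouts, and Zeb2 in the mean of both (-0.14). With the fibroblast covariate they changed for Cdh1 (0.015) and Cdh2 (0.36) in Usp22-KOB, Epcam (-0.97), Snai1 (0.23) and Snai2 (-0.13) between knockouts, and Zeb2 in Usp22-KOA (0.41). Array weights changed Epcam between knockouts (-0.041). Leaving out 1 sample gave -0.19 to 0.0046 for Cdh2 in Usp22-KOB (above 0 without Usp22-KOB 1), -0.034 to 0.37 for Snai1 (below 0 without Usp22-KOA 1) and -0.28 to 0.037 for Zeb2 in Usp22-KOA (above 0 without Usp22-KOA 3), and -0.096 to 0.46 for Epcam and -0.0087 to 0.14 for Snai2 between knockouts (both below 0 without Usp22-KOA 3). It also gave 5555 to 7401, 6946 to 8224, 3725 to 5615 and 5912 to 7393 genes, and 8 to 10, 6 to 7, 5 to 7 and 6 to 7 EMT genes.

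Zeb2 in the mean of both knockouts was 0.48 (limma adjusted p = 0.0626) and was called without Usp22-KOA 3 or Usp22-KOB 3. Whether replicate numbers pair the samples was not settled. Deviations of same-numbered samples correlated at -0.125 to 0.276 and those of unlike-numbered samples at -0.235 to 0.201, and 5 of 9 samples correlated best with their own number. Between the knockouts, same-numbered samples correlated at 0.187, 0.0765 and 0.276, and unlike-numbered ones at -0.235 to 0.104. With the replicate block 6702, 7588, 4835 and 6922 genes and 9, 7, 6 and 6 EMT genes were called, with Zeb2 gained in the mean of both (limma adjusted p = 0.0101) and Vim lost between knockouts (0.0527). A filter at 5 TPM left out Snai1 and Snai2. Depth is unknown, so counting error at low levels could not be given.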

Other observations

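The table lists the 5 hairpin genes of the miR-200 family, known for silencing Zeb1 and Zeb2, at 0 in all 9 samples. Libraries of this kind do not measure mature microRNAs, so this says nothing of their level. Of the tissues beside a tumor under the skin, skeletal muscle markers (6 genes) summed to 7.73 to 9.40, 4.39 to 6.61 and 2.51 to 7.46 TPM in the WT, Usp22-KOA and Usp22-KOB samples. Skin keratinocyte markers (7 genes) summed to 7.77 to 10.3, 4.14 to 8.95 and 4.05 to 5.69 TPM, and adipocyte markers (6 genes) to 27.4 to 32.1, 18.0 to 26.4 and 19.4 to 31.4 TPM.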
